A study of Mus musculus with 54 samples.

Results

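Gene expression in liver was compared directly between mice exposed to DINP at 1.5 and at 15 mg/kg bw/d, with no control group in the test, in 13 mice per dose and in every gene that reached a mean value of at least 1 over these 26 mice. That left 11449 of the 20162 rows of the table, the row just inside having a mean of 1.00 (9430083B18Rik) and the row just outside one of 0.999767 (Ifi213). DINP (di-isononyl phthalate) is a plasticizer of flexible polyvinyl chloride. The 54 mice of the study also include 14 controls and 14 mice at 150 mg/kg bw/d, which are used here only for orientation. All were wild-type C57BL/6J males, housed singly and kept on a high-fat diet (HFD) from 8 weeks of age. DINP, or vehicle alone, was eaten every morning in a gelatin pellet for 20 weeks. Each library was prepared from the medial liver lobe of 1 mouse with QuantSeq, a method that reads the 3′ end of polyadenylated transcripts. Bulk liver was measured, so that fewer cells of a type and less RNA per cell cannot be told apart.

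Among the gene lists described below, those with the most members called with all 26 mice encode parts of the ribosome and of the respiratory chain. With all 26 mice 31 of 80 cytosolic ribosomal protein genes and 24 of 83 nuclear respiratory chain genes were called higher at 15 mg/kg, against 3.55% of all rows (list medians 0.37 and 0.31 on the log2 scale). Without 6 libraries that stand apart, described below, 3 and 3 were, against 0.515% of all rows (0.10 and 0.09). The clock output and periportal lists had medians of 0.31 and 0.36 with all mice and of 0.31 and 0.32 without the 6. The cytosolic ribosome builds all proteins encoded in the nucleus from about equal amounts of each ribosomal protein, whose genes are long known to be expressed together. The respiratory chain of the inner mitochondrial membrane is assembled from subunits encoded partly in the nucleus and partly in mitochondrial DNA. Mitochondria have their own ribosomes for the latter, and import and fold the former with dedicated translocases and chaperones. Hepatocytes are rich in both machineries. The nuclear receptor PPARα, which phthalate metabolites can activate in mouse liver, drives genes of fatty acid binding and oxidation such as Fabp1, Ehhadh and Cyp4a10.

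Promoters of 5 called genes are shown because these genes carried the comparison below in different roles. Fabp1 binds fatty acids in the hepatocyte cytosol, Hspe1 is the mitochondrial co-chaperonin, Rpl38 a protein of the large ribosomal subunit, Cox7b a subunit of cytochrome c oxidase and Lipa the lysosomal acid lipase. The first 4 were higher at 15 mg/kg and Lipa was lower. Each run is the 250 bases before the annotated RefSeq start in GRCm38.p6, written 5′ to 3′ on the strand of the gene, with matches to the searched motifs in capitals.
Fabp1, chr6:71199629-71199878 (+): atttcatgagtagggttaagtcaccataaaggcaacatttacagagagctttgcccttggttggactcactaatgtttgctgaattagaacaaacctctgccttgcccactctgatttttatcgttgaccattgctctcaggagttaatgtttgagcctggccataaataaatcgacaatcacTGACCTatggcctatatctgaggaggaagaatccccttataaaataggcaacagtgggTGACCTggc
Hspe1, chr1:55087898-55088147 (+): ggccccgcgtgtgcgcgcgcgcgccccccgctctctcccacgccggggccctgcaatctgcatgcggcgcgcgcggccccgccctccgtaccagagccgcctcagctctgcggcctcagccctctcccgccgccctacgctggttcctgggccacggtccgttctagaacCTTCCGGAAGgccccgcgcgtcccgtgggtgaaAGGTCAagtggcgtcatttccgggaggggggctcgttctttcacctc
Rpl38, chr11:114668330-114668579 (+): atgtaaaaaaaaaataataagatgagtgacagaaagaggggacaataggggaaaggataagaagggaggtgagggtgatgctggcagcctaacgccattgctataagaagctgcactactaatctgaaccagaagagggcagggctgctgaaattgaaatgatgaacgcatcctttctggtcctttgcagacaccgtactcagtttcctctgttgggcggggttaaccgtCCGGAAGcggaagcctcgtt
Cox7b, chrX:106015450-106015699 (+): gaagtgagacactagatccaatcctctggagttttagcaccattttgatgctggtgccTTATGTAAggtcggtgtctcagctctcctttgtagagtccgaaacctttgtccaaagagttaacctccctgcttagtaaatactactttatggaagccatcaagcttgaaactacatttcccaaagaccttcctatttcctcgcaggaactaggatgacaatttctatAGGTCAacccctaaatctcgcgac
Lipa, chr19:34527475-34527724 (-): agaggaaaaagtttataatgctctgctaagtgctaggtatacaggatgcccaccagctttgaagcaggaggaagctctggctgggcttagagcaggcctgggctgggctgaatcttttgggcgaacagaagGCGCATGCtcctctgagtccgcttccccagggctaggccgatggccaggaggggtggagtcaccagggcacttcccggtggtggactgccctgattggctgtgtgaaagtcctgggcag

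Both strands were searched for CCGGAAG (ETS type), TGACGTCA (CRE), GCATGCGC (NRF1 part), AAGATGGC (YY1 part), TGACCT (a nuclear receptor element) and TTATGTAA (D-box), and CTTCCGGAAG in Hspe1 holds a match on each strand that overlaps the other. Fabp1 held TGACCT at -67 and -9 from the start, Hspe1 and Cox7b held it on the other strand at -47 and -24, Rpl38 held CCGGAAG at -20, Cox7b TTATGTAA at -192, and Lipa GCATGCGC on the other strand at -119. In windows of 300 bases (250 before and 50 after the start), CCGGAAG was present in 22.2% of those of genes called higher, in 21.0% of those called lower and in 18.1% of all genes tested. It was present in 36.6% of the windows of cytosolic ribosomal protein genes and in 8.86% of all windows. TGACGTCA was found in 4.66% of windows called higher, 1.47% of those called lower and 2.85% of those tested, and AAGATGGC in 6.41%, 3.68% and 4.54%. The shares of GCATGCGC were 4.96%, 4.41% and 5.22%, those of TGACCT 14.0%, 14.3% and 13.5%, and those of TTATGTAA 2.04%, 1.47% and 0.629%. Only 501 of the 738 called rows had a window, and a match is no more than these letters.

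Replicates 4 to 9 at 15 mg/kg stood apart from the other mice. Their scores on the first principal component of all tested genes, which held 21.9% of the variance, lay between 27.9 and 51.8, and those of the other 20 mice lay between -30.3 and 5.17. In an analysis of all 54 mice they lay between 30.6 and 52.9 against -25.0 to 31.0 in the other 48, where 1 control mouse reached 31.0. Ribosomal protein genes took 2.10% to 2.85% of the summed value in these 6 libraries. In the other 7 mice at 15 mg/kg the share was 1.48% to 1.91%, and at 1.5 mg/kg it was 1.46% to 1.91%. Controls reached 2.25% and mice at 150 mg/kg 2.31%, so the 6 libraries overlapped with those groups. Deviations from the gene means had a Spearman correlation across genes with transcript length of -0.134 to -0.0474 in the 6 libraries, of -0.0144 to 0.0772 in the other 7 and of -0.0428 to 0.0881 at 1.5 mg/kg; genes are not independent replicates and this is a description only. Controls went down to -0.101 and mice at 150 mg/kg to -0.0556, within the range of the 6 libraries. With the GC content of the last 500 bases the same correlation was -0.116 to -0.0163, -0.170 to 0.0317 and -0.0406 to 0.104. The labels name no batch, so the part of library preparation or any other shared circumstance of these 6 mice was not tested, and values without these 6 (13 against 7 mice) are given beside those of all 26 mice for most lists and called genes. Summed values were 849922 to 1005966 at 1.5 mg/kg and 849928 to 1076439 at 15 mg/kg. These sums are scaled and are not read depths, which remain unknown here, so no counting intervals are given.

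**Figure D1:**
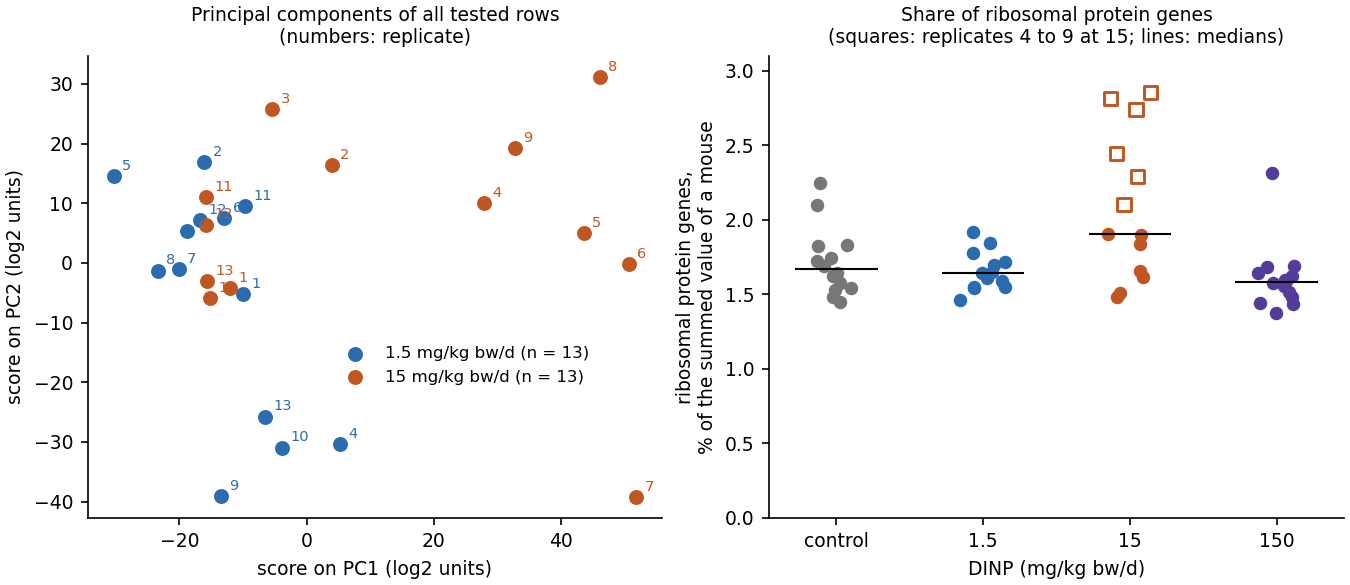
Left, scores of the 26 mice on the first and second principal components of all 11449 tested rows (log2 units), numbered by replicate. Right, summed ribosomal protein genes as a percentage of the summed value in all 54 mice by DINP dose, 1 point per mouse with the median as a line. Replicates 4 to 9 at 15 mg/kg lie to the right of all other mice on the first component, and all 6 are above every mouse at 1.5 mg/kg in the right panel.

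The first 2 components of the 500 most variable genes did not separate the doses by a two-sided permutation test. Mean scores differed by 8.36 on the first (21.2% of the variance, adjusted p = 0.129) and by 6.99 on the second (11.8%, adjusted p = 0.129). With all tested genes the difference on the first component was 27.2 (adjusted p = 0.00706), on which the 6 libraries had the highest scores. Without them the first component of the 500 genes differed by 5.25 (adjusted p = 0.376) and the second by 10.6 (adjusted p = 0.0259).

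By limma on log2(value + 1), with Benjamini-Hochberg adjusted p < 0.05 and an absolute log2 fold change above 0.5, 407 rows were higher at 15 than at 1.5 mg/kg (3.55% of those tested) and 331 were lower (2.89%), together 738 (6.45%). At the adjusted p alone, 924 were higher (8.07%) and 850 lower (7.42%). Changes were modest, with a median log2 fold change of 0.64 in the rows called higher and -0.64 in those called lower, against -0.01 over all tested rows. Only 39 called rows were above 1 and 28 below -1. With each mouse scaled to an equal summed value, 297 were higher and 452 lower, so that 39.7% of the called rows were higher against 55.1% above. Rows that were called in every one of the 26 fits that left out 1 mouse numbered 253 higher and 201 lower. A mean under 1 at 1 of the doses was found in 34 called rows, which passed the filter only through the other dose. Without replicates 4 to 9 at 15 mg/kg, 59 rows were higher (0.515%) and 33 lower (0.288%). Of the 738, 50 were called again in the same direction (29 higher, 21 lower) and 101 had an adjusted p < 0.05. Both fits share 20 mice and are not independent. Without the 6, median log2 fold changes were 0.32 for the rows called higher and -0.36 for those called lower. Leaving out 6 of 13 mice also lowers the power of the test. The 6 were picked by high scores on a component of these same values. Leaving them out shrinks the differences of genes that follow this component in any case, so this comparison is no test of robustness.

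Called rows had shorter transcripts and higher values at the median than the rest, which was not tested. The median of the mean value over the 26 mice was 25.6 for rows called higher, 13.8 for those called lower and 7.00 for rows not called. Among the 710 called rows with an annotated transcript, the median length was 950.25 bases for those called higher, 1471 for those called lower and 1920.25 for rows not called. GC content of the last 500 bases had medians of 44.4%, 49.4% and 46.2%. Without the 6 libraries the medians were 1285, 1462 and 1861 bases and 42.1%, 52.2% and 46.2% GC. Whether length or GC content had a part in any single gene was not tested; with a smooth trend on both removed from each mouse, 320 rows were higher and 284 lower.

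The smallest p-values belonged to the peptidyl-prolyl isomerase gene Pin4 and to Rab4b, a small GTPase of endosome recycling. Pin4 (chrX:102119447-102127669) lay between 9.07 and 21.9 at 1.5 mg/kg (median 15.7) and between 23.4 and 86.2 at 15 mg/kg (median 38.7). Every mouse at 15 mg/kg was thus above every mouse at 1.5 mg/kg, with a log2 fold change of 1.33 (SE 0.18, adjusted p = 0.000179) and 0.93 without the 6 libraries. Rab4b (chr7:27168424-27178896) ranged from 19.3 to 30.5 (median 24.8) at 1.5 mg/kg and from 12.0 to 20.4 (median 15.2) at 15 mg/kg. The ranges overlapped at their edge, and the log2 fold change was -0.65 (SE 0.09, adjusted p = 0.000179), or -0.52 without the 6.

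Cox17, the copper chaperone of cytochrome c oxidase (chr16:38346991-38352763), lay between 119 and 187 (median 150) at 1.5 mg/kg and between 187 and 665 (median 295) at 15 mg/kg, and the groups did not overlap. Its log2 fold change was 1.07 (SE 0.16, adjusted p = 0.00033), and 0.64 without the 6 libraries. Hspe1 (chr1:55088132-55091307), whose promoter is shown above, ranged from 231 to 319 (median 274) against 314 to 915 (median 486). Only the edges of these ranges met, with a log2 fold change of 1.05 (SE 0.15, adjusted p = 0.00033) and 0.58 without the 6. Dnajc19, a J protein of the mitochondrial import motor, and Sec62, part of the translocation machinery of the endoplasmic reticulum, did not overlap either. Dnajc19 was at 75.1 to 120 (median 103) and 128 to 315 (median 201), a log2 fold change of 0.97 (SE 0.14), and 0.57 without the 6. Sec62 was at 60.0 to 74.1 (median 66.2) and 75.3 to 151 (median 104), a log2 fold change of 0.63 (SE 0.09), and 0.52 without the 6. The splicing regulator Rbm39 rose from 163 to 207 (median 181) to 220 to 378 (median 259), again without overlap, by 0.57 (SE 0.08), and the value was 0.46 without the 6. The adjusted p of these 3 genes was 0.00033.

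Lipa (chr19:34492318-34527474), which frees fatty acids and cholesterol from lysosomal lipid, was at 67.8 to 189 (median 114) at 1.5 mg/kg and at 19.9 to 88.0 (median 45.1) at 15 mg/kg. Some mice of the groups overlapped, and the log2 fold change was -1.25 (SE 0.19, adjusted p = 0.00033). Without the 6 libraries it was -1.02 and was still called. The kinase gene Taok2 fell from a median of 15.2 to 8.94 (log2 fold change -0.65, SE 0.10), Entr1, which acts in endosomes, from 25.0 to 14.3 (-0.65, SE 0.10) and Poldip3, an RNA-binding protein of mRNA export, from 13.4 to 8.86 (-0.61, SE 0.09), each with an adjusted p of 0.00033. They were -0.56, -0.69 and -0.50 without the 6, Poldip3 then falling outside the call. The predicted gene Gm6133 fell from a range of 47.2 to 81.3 to a range of 12.0 to 42.8, with no overlap (-1.24, SE 0.19, adjusted p = 0.000335; -0.69 without the 6).

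**Figure D2:**
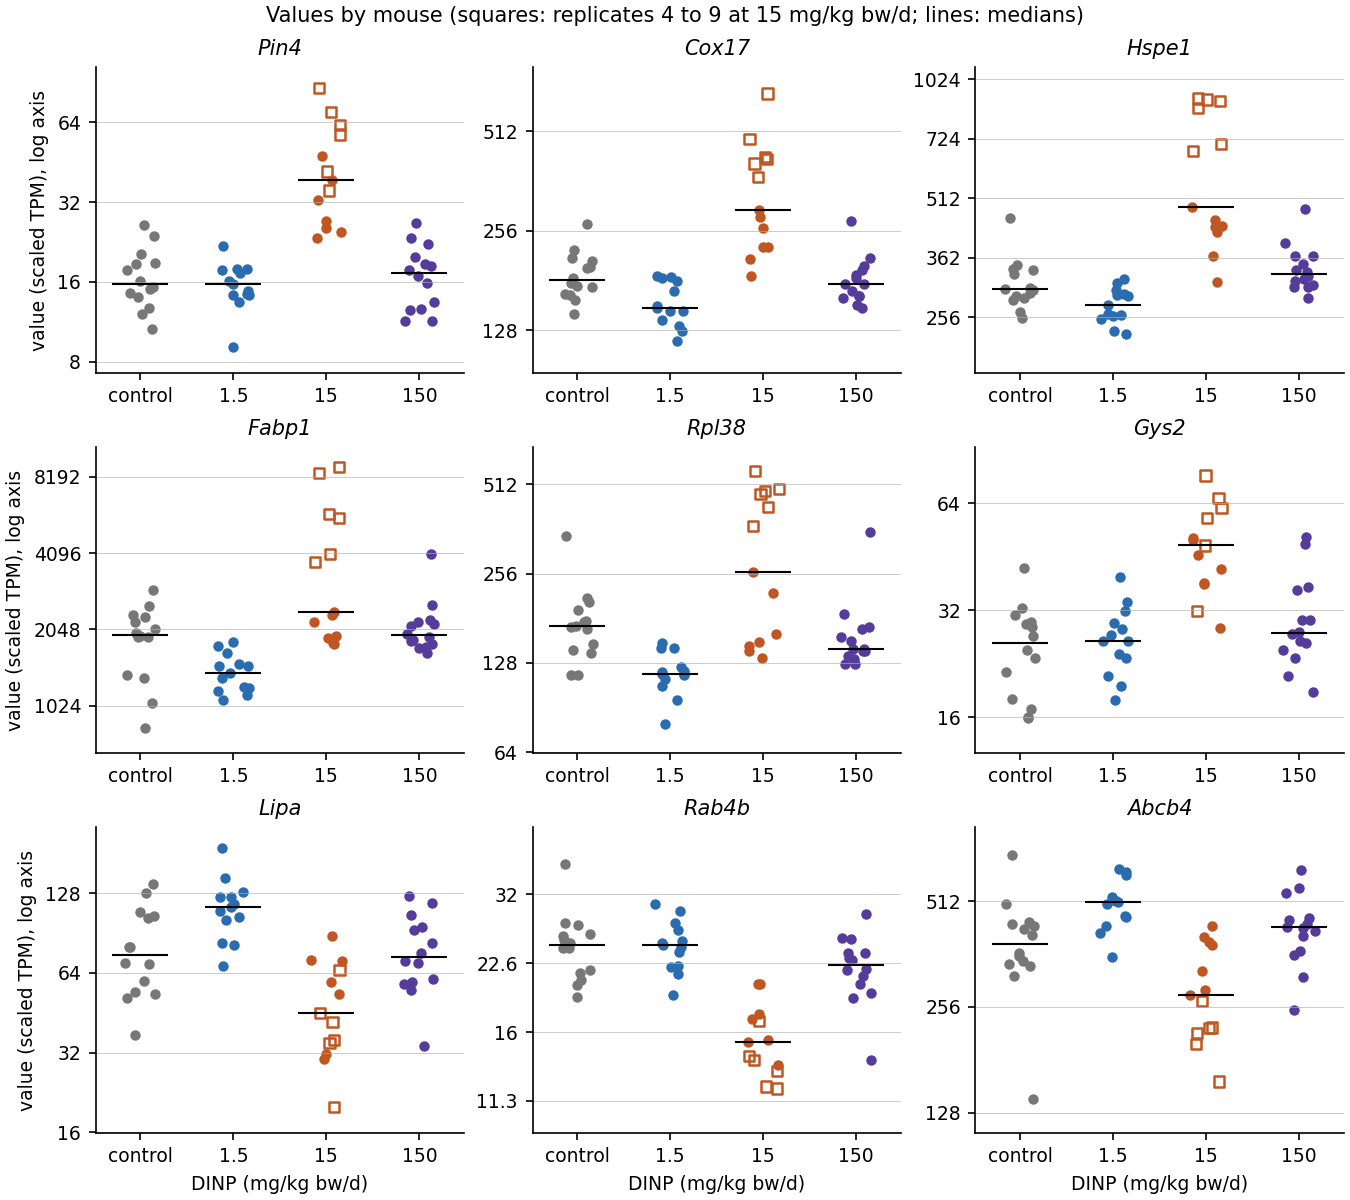
Values (scaled TPM, log axis with base 2) of 9 genes in each of the 54 mice by DINP dose, with medians as lines and replicates 4 to 9 at 15 mg/kg as squares. Pin4 and Cox17 do not overlap between 1.5 and 15 mg/kg (Pin4 at 9.07 to 21.9 against 23.4 to 86.2), and Lipa, Rab4b and Abcb4 are lower at 15 mg/kg.

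In all, 10 rows, 0.0873% of those tested, had every mouse at 15 mg/kg above every mouse at 1.5 mg/kg, and 3 rows (0.0262%) had every mouse below. Named after their values were seen, the 10 included Pin4, Cox17, Dnajc19, Sec62, Rbm39, Atp5pb, Hnrnpa2b1, Rbm34 and the mitochondrial chaperone gene Hspa9, and the 3 were Gm6133, Rpl17-ps5 and Atp6v1f. Hspa9 and Atp6v1f did not pass the fold threshold, at 0.25 and -0.45.

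Among called genes with a mean of at least 10, the largest increases included those of Gm56450 (2.03, SE 0.44), the small Cajal body RNA gene Scarna2 (1.55, SE 0.36), Pin4, Atp5pf (1.27, SE 0.21), Fabp1 (1.26, SE 0.23), Rpl29 (1.23, SE 0.29) and Rpl38 (1.19, SE 0.22). Their adjusted p-values were 0.000179 to 0.00642, and their log2 fold changes without the 6 libraries were 1.42, 0.58, 0.93, 0.64, 0.56, 0.31 and 0.51. The largest decreases were those of the pseudogene Mup-ps17 (-4.52, SE 0.85), Gm20708 (-3.33, SE 0.57), Mup9 (-2.45, SE 0.79), Rpl17-ps5 (-1.89, SE 0.36), Scarna17 (-1.71, SE 0.38), Gm12693 (-1.70, SE 0.37), Gm5121 (-1.38, SE 0.29) and Mup14 (-1.28, SE 0.28). Their adjusted p-values were 0.000646 to 0.0357, and without the 6 libraries the values were -2.21, -2.99, -0.24, -0.97, -0.87, -0.68, -0.75 and -0.87. Gm20708, a predicted gene that overlaps Afmid and Syngr2 on its strand, was listed at 0 to 37.5 (median 25.2) at 1.5 mg/kg and at 0 to 29.5 (median 0) at 15 mg/kg. Several of these rows are pseudogenes or members of families of near-identical copies, so how reads were divided among copies is uncertain. Of 57 ribosomal protein pseudogenes, 13 were called higher and 5 lower (3.55% and 2.89% of all rows), with a median of 0.27, and without the 6 libraries none was called higher and 1 lower, with a median of 0.05.

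Genes of the cytosolic ribosome had the most members called higher among the lists described here. Of 80 tested, 31 were called higher and none lower, against 3.55% and 2.89% of all rows, and the median log2 fold change of the list was 0.37. Rpl38 (chr11:114668524-114672331) ranged from 79.8 to 149 (median 117) at 1.5 mg/kg and from 133 to 568 (median 259) at 15 mg/kg (adjusted p = 0.00134). The ranges overlapped, and the 6 highest mice were replicates 4 to 9. Rpl4 of the large subunit went from a median of 97.5 to 147 (0.69, SE 0.12, adjusted p = 0.000568), and several small nucleolar RNAs lie on its strand. Rps25 of the small subunit went from 179 to 297 (0.76, SE 0.13, adjusted p = 0.000568). The large subunit genes Rpl19 and Rpl36a rose by 0.66 (SE 0.11, adjusted p = 0.00076) and 0.81 (SE 0.14, adjusted p = 0.000842). With these 6 left out Rpl4 was at 0.57, Rps25 at 0.48, Rpl19 at 0.41 and Rpl36a at 0.44. The summed list was 13110 to 18248 (median 15565) at 1.5 mg/kg and 14547 to 26495 (median 18032) at 15 mg/kg. Without the 6 libraries 3 of the 80 were called higher (Rpl4 and Rpl38 among them) and the median was 0.10. Within the 26 mice these 6 were also those with the highest ribosomal protein share, so the lower count without them is no separate test. By a Wilcoxon rank-sum test on all 26 mice 22 were called higher and none lower.

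Nuclear genes of the respiratory chain and ATP synthase followed, with 24 of 83 called higher, 1 lower (3.55% and 2.89% of all rows) and a median of 0.31. Cox7b (chrX, promoter shown above) ranged from 269 to 367 (median 328) at 1.5 mg/kg and from 350 to 723 (median 472) at 15 mg/kg. Only the edges overlapped, and its log2 fold change was 0.59 (SE 0.09, adjusted p = 0.00033) and 0.60 without the 6 libraries. Atp5pb of the ATP synthase stalk was at 154 to 198 (median 183) and 203 to 404 (median 253), with no overlap (0.59, SE 0.10, adjusted p = 0.000646; 0.32 without the 6). Atp5pf of the same stalk was at 94.1 to 165 (median 129) and 158 to 747 (median 288), and its adjusted p was 0.000558. Ndufa6 of complex I rose by 0.55 (SE 0.11, adjusted p = 0.00173; 0.29 without the 6), and its call was lost with 0.49 when replicate 5 at 15 mg/kg was left out. Cox6c2, the only member called lower, is annotated as a processed pseudogene, as is Ndufb4c among those called higher. Cox6c2 changed by -1.02 (SE 0.27, adjusted p = 0.0123), and by -0.36 without the 6. The list without them held 3 called higher (Cox7b, Atp5pf, Ndufb1), 0 lower and a median of 0.09. By the Wilcoxon test on all mice 22 were higher and 1 lower.

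Of the 13 proteins encoded in mitochondrial DNA 3 were called higher (23.1%, against 3.55% of all rows) and none lower. These were ND3, COX2 and COX3, at 1.10 (SE 0.22, adjusted p = 0.00205), 0.91 (SE 0.25, adjusted p = 0.014) and 0.60 (SE 0.19, adjusted p = 0.0311). ND3 ranged from 1780 to 3751 at 1.5 mg/kg and from 3088 to 12283 at 15 mg/kg. The median of the 13 was 0.06, and their 3 called members were at 0.44, 0.16 and 0.07 without the 6 libraries, where ATP8 alone was called higher (0.51, against 0.08 with all mice) and the median was 0.07. The 13 genes together took 17.6% to 20.4% of the summed value at 1.5 mg/kg and 16.5% to 22.9% at 15 mg/kg, ranges that overlapped. Of 75 genes of the mitochondrial ribosome 12 were called higher (16.0%, against 3.55% of all rows) and none lower, with a list median of 0.07. Mrpl42 was at 35.5 to 51.6 (median 45.3) and 49.9 to 144 (median 72.5), a rise of 0.93 (SE 0.15, adjusted p = 0.000353). Mrpl52 (0.56, SE 0.10), Mrpl51 (0.56, SE 0.11) and Mrpl41 (0.60, SE 0.13) had adjusted p-values of 0.000739, 0.00169 and 0.00298 and were at 0.33, 0.40 and 0.33 without the 6 libraries, and Mrpl51 was at 0.49 without replicate 5 at 15 mg/kg. None of the 75 was called without the 6 libraries by limma, the median was then 0.02 and Mrpl42 was at 0.50.

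**Figure D3:**
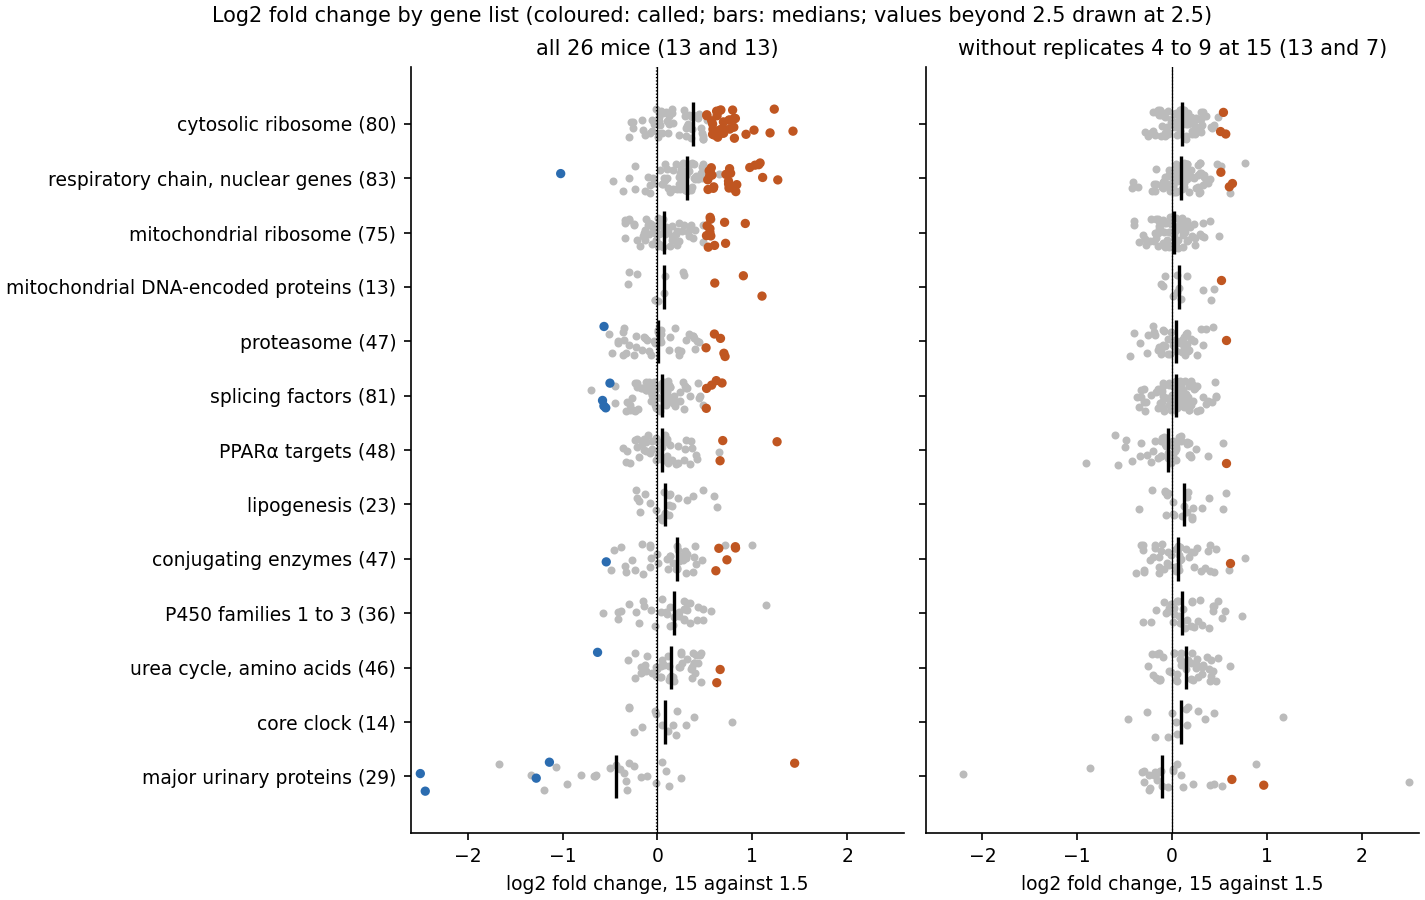
Log2 fold changes of 15 against 1.5 mg/kg by gene list, 1 point per tested gene (number tested in parentheses), coloured where called, with list medians as bars. The left panel uses all 26 mice and the right panel leaves out replicates 4 to 9 at 15 mg/kg; the median of the cytosolic ribosome is 0.37 on the left and 0.10 on the right.

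Genes of protein import and folding gave 1 or 2 calls per list. Of 23 genes of mitochondrial import Tomm5, of the outer membrane translocase (1.09, SE 0.32, adjusted p = 0.0206), and Timm8b, which escorts proteins between the membranes (0.51, SE 0.13, adjusted p = 0.0071), were called higher (8.70%, against 3.55% of all rows), with a list median of 0.16. They were at 0.18 and 0.19 without the 6 libraries, where none of the list was called and its median was -0.04. Of 27 heat shock genes 1 was called in each direction, near the shares of all rows, namely Hspe1 higher and the co-chaperone gene Dnajc7 lower (-0.58, SE 0.19, adjusted p = 0.033; -0.05 without the 6). Of the 8 subunits of the cytosolic chaperonin 1 was called higher (12.5%, against 3.55% of all rows) and none lower. This was Tcp1, which went from a median of 44.3 to 72.5 (0.63, SE 0.10, adjusted p = 0.000507, and 0.48 without the 6). The 8 had a median of 0.16, and without the 6 libraries none was called and the median was 0.08. The heat shock list had medians of 0.15 and 0.14 with and without them, and Hspe1 was called in both.

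Of 47 proteasome genes 5 were called higher and 1 lower (3.55% and 2.89% of all rows), with a list median of 0.01. The 20S subunits Psma4 (0.70, SE 0.11, adjusted p = 0.000507), Psma1 (0.60, SE 0.11, adjusted p = 0.00103) and Psmb3 (0.51, SE 0.13, adjusted p = 0.00809) and the assembly chaperone Psmg4 (0.71, SE 0.21, adjusted p = 0.0208) were higher, while the assembly chaperone Psmg3 was lower (-0.56, SE 0.11, adjusted p = 0.00173). In the 20 mice without the 6, these 5 genes were at 0.43, 0.36, 0.26, 0.15 and -0.34 and none was called. Another subunit gene, Psmc6, was then the only call of the list (0.57, against 0.42 with all mice), whose median was 0.04. Psma4 was at 65.2 to 80.1 (median 74.6) and 70.2 to 182 (median 115). Of 81 splicing factors 5 were called higher and 4 lower, against 3.55% and 2.89% of all rows, with a list median of 0.05. Hnrnpa2b1, which binds exonic and intronic splicing signals, was at 69.8 to 87.0 (median 78.7) and 89.6 to 179 (median 128), without overlap (0.62, SE 0.10, adjusted p = 0.000353; 0.42 without the 6). The U2 particle protein Snrpa1 (0.68) and the SR protein kinase Clk1 (0.52) were also higher, with adjusted p-values of 0.00241 and 0.00535, and were at 0.46 and 0.32 without the 6. The factors called lower were Srsf9 (-0.56), Sf3a2 (-0.54), Srsf11 (-0.58) and Prpf3 (-0.50), with adjusted p-values of 0.00557, 0.00665, 0.0178 and 0.0224, and were at -0.22, -0.37, -0.14 and -0.33 without the 6. No splicing factor of this list was called by limma without the 6 libraries, and the list median was then 0.04.

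Of 48 PPARα target genes tested, 3 were called higher (6.25%, against 3.55% of all rows) and none lower, and the list median was 0.05. Without the 6 libraries 1 was called higher and the median was -0.04. Fabp1 (chr6:71199827-71205023) was at 1078 to 1817 (median 1382) at 1.5 mg/kg and at 1795 to 8923 (median 2406) at 15 mg/kg. The ranges met at their edge, 6 mice of the higher dose were above all others and these were replicates 4 to 9. The adjusted p of Fabp1 was 0.00129, and it was still called without these 6, at 0.56. The fatty aldehyde dehydrogenase gene Aldh3a2 (0.66, SE 0.21, adjusted p = 0.0347) and the acyl-CoA thioesterase gene Acot1 (0.69, SE 0.24, adjusted p = 0.0479) were close to the threshold and were at 0.10 and 0.38 without the 6. Ehhadh of peroxisomal β-oxidation had medians of 15.2 and 15.1 (0.00, SE 0.11, adjusted p = 0.999), and the ω-hydroxylase Cyp4a10 medians of 149 and 128 (-0.06, SE 0.28, adjusted p = 0.912). Their medians at 150 mg/kg were 48.9 and 381, and in controls 14.2 and 126. The fatty acid transport and activation gene Slc27a2 (-0.01, SE 0.12), the carnitine synthesis gene Aldh9a1 (0.04, SE 0.07), the mitochondrial glutamate carrier gene Slc25a22 (-0.24, SE 0.08), the steroid-inducible Cyp3a11 (0.48, SE 0.22) and the transporter gene Slc16a6 (-0.55, SE 0.20) had adjusted p-values of 0.95, 0.715, 0.0534, 0.148 and 0.0564, and Cyp3a11 was at -0.06 without the 6. Slc12a7, a potassium-chloride cotransporter gene, had an adjusted p of 0.0129 at -0.33 (SE 0.09), short of the fold threshold.

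None of 23 lipogenic genes was called by limma or by the Wilcoxon test, and 3 had an unadjusted p < 0.05 (30.4% of all rows). The list median was 0.08, and 0.12 without the 6 libraries, where none was called. Srebf1, the regulator of fatty acid synthesis, had medians of 74.8 and 103 (0.48, SE 0.14, adjusted p = 0.0208), Elovl6 47.4 and 79.4 (0.63, SE 0.24, adjusted p = 0.0697) and Thrsp 293 and 493 (0.59, SE 0.26, adjusted p = 0.128). In the cholesterol pathway 1 of 28 genes was called in each direction, near the 3.55% and 2.89% of all rows. The synthesis enzyme gene Lss was called higher (0.57, SE 0.14, adjusted p = 0.00662) and the regulator Srebf2, which hosts Mir33 on its strand, lower (-0.60, SE 0.16, adjusted p = 0.013), both at values below 6 in every mouse of these doses. The list median was 0.02. In the fit of 20 mice no gene of the list was called, the median was 0.00, Lss was at 0.62 and Srebf2 at -0.24.

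Among 26 bile acid genes 2 were called higher and 1 lower (3.55% and 2.89% of all rows), with a list median of 0.09. Abcb4, which moves phosphatidylcholine into bile (chr5:8893717-8959231), was at 354 to 631 (median 508) at 1.5 mg/kg and at 157 to 435 (median 277) at 15 mg/kg. The groups overlapped between these limits, with a log2 fold change of -0.83 (SE 0.14, adjusted p = 0.000518) and -0.50 without the 6 libraries. Akr1d1, a reductase of bile acid synthesis, rose from a median of 32.9 to 48.8 (0.53, SE 0.09, adjusted p = 0.000842; 0.42 without the 6), and the bile acid transporter gene Slc10a2 rose by 0.53 (SE 0.18, adjusted p = 0.0451; 0.38 without the 6). No bile acid gene was called without the 6, and the list median was then 0.13. Of 30 genes of glucose metabolism and insulin action 2 were called higher and none lower (3.55% and 2.89% of all rows), with a median of -0.02. Gys2, the liver glycogen synthase (chr6:142422613-142473109), was at 17.9 to 39.6 (median 26.3) and 28.5 to 76.6 (median 48.7). The ranges overlapped, and Gys2 was 0.82 higher (SE 0.14, adjusted p = 0.000568) and remained called without the 6, at 0.63. Fbp1 of gluconeogenesis was at 353 to 501 (median 407) and 428 to 859 (median 602) (0.54, SE 0.11, adjusted p = 0.00194; 0.26 without the 6). Without the 6 Gys2 was the only call of this list and the median was 0.00.

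Conjugating enzymes of phase II metabolism gave 5 calls higher and 1 lower among 47 genes (3.55% and 2.89% of all rows), with a list median of 0.21, and 1 call higher, none lower and a median of 0.06 without the 6 libraries. The sulfotransferase gene Sult1a1 (chr7:126672865-126676432) was at 51.1 to 110 (median 76.1) and 96.2 to 205 (median 114), with overlap of a few mice. It rose by 0.73 (SE 0.13, adjusted p = 0.000653) and was called again without the 6 libraries, at 0.61. The glutathione transferase genes Mgst1 (0.82, SE 0.20, adjusted p = 0.00655), Gsta4 (0.62, SE 0.17, adjusted p = 0.0157) and Gsta2 (0.82, SE 0.24, adjusted p = 0.0189) were higher, at 0.23, 0.30 and 0.76 without the 6. Ugt1a1, which conjugates bilirubin and shares its last exons with the other Ugt1a genes, was lower (-0.54, SE 0.19, adjusted p = 0.049; -0.12 without the 6). None of 36 P450 genes of families 1 to 3 was called by either test, and 9 had an unadjusted p < 0.05 (7 higher, 2 lower; 30.4% of all rows), and their median was 0.17, and 0.10 without the 6 libraries, where none was called either. Cyp2r1 (0.29, SE 0.12), Cyp2u1 (-0.58, SE 0.24) and Cyp2a12 (0.28, SE 0.12) had adjusted p-values of 0.0948, 0.101 and 0.105. Of 46 genes of the urea cycle and amino acid breakdown, 2 were called higher, among them Oat (0.63, SE 0.20, adjusted p = 0.0315), and 1 lower (3.55% and 2.89% of all rows), Slc25a13, the aspartate-glutamate carrier (-0.63, SE 0.15, adjusted p = 0.00557). Their list median was 0.14. In the fit of 20 mice Oat was at 0.31 and Slc25a13 at -0.26, no gene of the list was called and the median was 0.15.

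Major urinary proteins, the pheromone carriers that male mouse liver secretes, had a list median of -0.44 over 29 genes. Among them 4 were called lower (Mup-ps17, Mup9, Mup14, Mup16) and 1 higher (Mup22), against 2.89% and 3.55% of all rows. The summed list was 11756 to 57484 (median 25118) at 1.5 mg/kg and 9114 to 31644 (median 17363) at 15 mg/kg, and the groups overlapped broadly. In controls the sum was 9365 to 20739 (median 14754) and at 150 mg/kg 11677 to 24133 (median 16899). The median was thus highest at 1.5 mg/kg, and that at 15 mg/kg was not below the controls. The study reports members of this family as raised only at its low dose. Mup14 was at 1478 to 6553 (median 2488) and 321 to 2429 (median 1461), with an adjusted p of 0.00409. Its medians were 1124 in controls and 1896 at 150 mg/kg. Mup16 changed by -1.14 (SE 0.36, adjusted p = 0.033; -0.24 without the 6). Mup22, listed at 0 in most mice at 1.5 mg/kg, had a median of 1.95 and a highest value of 56.4 at 15 mg/kg (1.45, SE 0.40, adjusted p = 0.0162). Its mean of 0.383 at 1.5 mg/kg was under the filter, which it passed only through 15 mg/kg (mean 6.50), so its call supports nothing further. Without the 6 libraries the list median was -0.10, none was lower and Mup18 and Mup22 were called higher. These genes are near-identical in sequence, so the division of reads among them is uncertain.

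No gene of the core circadian clock was called among 14 by limma or the Wilcoxon test, and 3 had an unadjusted p < 0.05 (30.4% of all rows), with a list median of 0.08, and 0.10 without the 6 libraries. Nr1d2 (0.30, SE 0.11), Per3 (0.39, SE 0.16) and Ciart (0.78, SE 0.37) had adjusted p-values of 0.0634, 0.105 and 0.144. Of 15 clock output genes 2 were called higher (13.3%, against 3.55% of all rows) and none lower. These were Gys2 and Noct (1.05, SE 0.28, adjusted p = 0.0131, and 0.51 without the 6). The list median was 0.31 with all mice and also without the 6, where Gys2 alone was called. Of 45 lysosomal genes Psap (0.80, SE 0.26, adjusted p = 0.0366) and Asah1 (0.51, SE 0.15, adjusted p = 0.0229), both of sphingolipid breakdown, were called higher and Lipa lower, with a median of -0.02. With the 6 left out Psap was at 0.04 and Asah1 at 0.18, only Lipa was called and the median was -0.12. The lysosomal counts with all mice were near the shares of all rows (3.55% and 2.89%). Of 56 small nucleolar and Cajal body RNAs, Scarna2 was called higher and Scarna17, Snord70 (-2.35, SE 0.62, adjusted p = 0.0121) and Snora2b (-1.21, SE 0.40, adjusted p = 0.0406) lower, against 3.55% and 2.89% of all rows, with a median of -0.01. With the 6 left out the median was 0.41 with 39 of the 56 above 0, the only call was Snord22, higher (2.87, against 1.30 and not called with all mice), and Scarna2, Scarna17, Snord70 and Snora2b were at 0.58, -0.87, -2.14 and -1.06. Snord70 and Snora2b had means of 0.63 and 0.313 at 15 mg/kg, so that they passed the filter only through 1.5 mg/kg (means 12.8 and 2.93). They lie within Nop58 and Kansl2, were listed at 0 in at least 1 mouse of each dose, and had medians of 0 at 15 mg/kg, in controls and at 150 mg/kg. Their reads may come from the host genes in part, which was not tested.

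Some calls depended on single mice. With each mouse left out in turn, the calls of Ugt1a1, Acot1 and Slc10a2 were kept in 8, 9 and 9 of 26 fits, those of Snora2b, Prpf3, Aldh3a2, Asah1, Mup9, Psap and Mup16 in 11, 13, 14, 15, 16, 16 and 17, and those of Dnajc7, Timm8b, Oat, Psmb3, Clk1 and COX3 in 18, 18, 18, 19, 19 and 20. Mice of both doses were among those whose removal ended these calls, and no log2 fold change of these genes changed sign. Sf3a2 was lost without replicates 2, 4 or 5 at 15 mg/kg (-0.49 at the weakest), Akr1d1 without replicate 9 at 1.5 or 8 at 15 mg/kg (0.49), Fbp1 without replicate 6 or 8 at 15 mg/kg (0.49) and Srsf9 without replicate 6 at 15 mg/kg (-0.48).

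No marker of other cells was called between the doses, which does not show that none moved. Of 77 genes in 12 lists (Kupffer cells, lipid-associated macrophages, neutrophils, T and NK cells, B and plasma cells, endothelium, stellate cells, cholangiocytes, erythroid cells, adipocytes, pancreatic acinar cells and mesothelium) none was called by limma or the Wilcoxon test, 12 had an unadjusted p < 0.05 (30.4% of all rows) and their median was -0.04. With the 6 libraries left out none was called by limma, 10 had an unadjusted p < 0.05 and the median was -0.08. With all 26 mice the medians of single lists ran from -0.89 (mesothelium, 1 gene tested) to 0.29 (erythroid cells, 6 genes). Those of T and NK cells (4 genes) and stellate cells (11 genes) were -0.38 and -0.21. Acinar cells rested on 1 tested gene, neutrophils on 2, and B and plasma cells on 4. Single mice stood out, as the summed cholangiocyte markers were 50.1 to 160 at 1.5 mg/kg and 64.1 to 470 at 15 mg/kg, and those of T and NK cells 9.53 to 64.4 and 8.14 to 124. Erythroid markers were at 289 to 1214 (median 524) and 323 to 1819 (median 877). Hepatocyte markers summed to 46507 to 73113 and 44311 to 67480. Of these 12 genes 1 was called higher (8.33%, against 3.55% of all rows) and none lower. The part of blood or bile duct content in single genes was not tested.

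**Figure D4:**
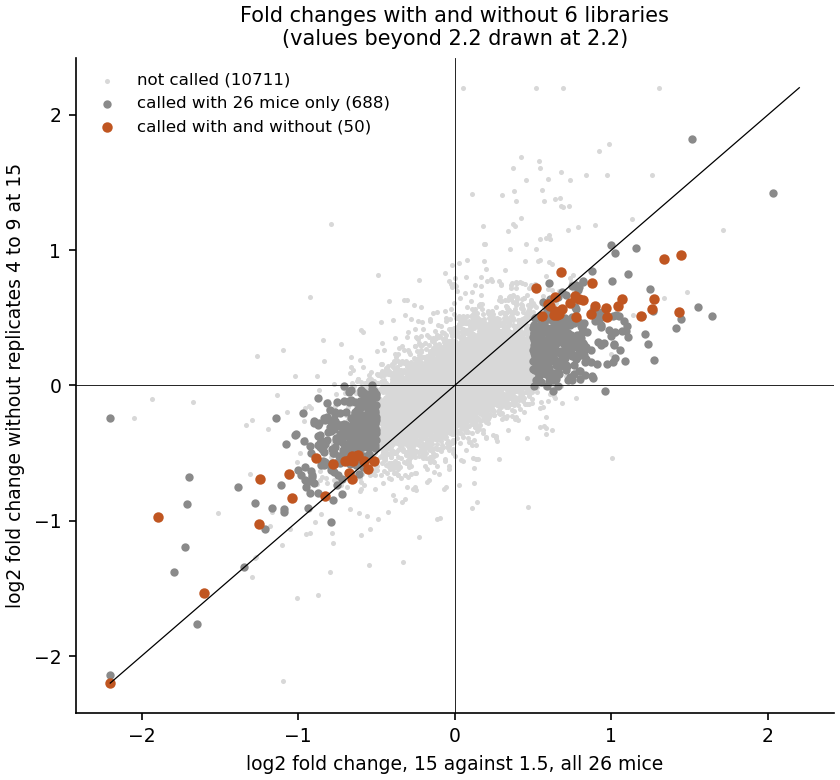
Log2 fold changes of 15 against 1.5 mg/kg in all tested rows with all 26 mice (x axis) and without replicates 4 to 9 at 15 mg/kg (y axis), with the line of equal values. Most of the 738 called rows lie between that line and 0 on the y axis, and 50 are called in both.

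Genes that stayed called without these 6 libraries included Pin4, Cox17, Hspe1, Dnajc19, Sec62, Cox7b, Atp5pf, Fabp1, Rpl4, Rpl38, Gys2 and Sult1a1 among those higher and Lipa, Rab4b, Entr1, Taok2, Gm20708, Gm6133 and Rpl17-ps5 among those lower. This held for 21 of the 82 called genes that the naming rule selected. With the trend on GC content and transcript length also removed, 17 of the 21 were called, and among those no longer called Sec62 was at 0.47, Rpl38 at 0.50 and Rab4b at -0.41. Correlations with GC content were -0.170 to -0.116 in replicates 1, 2, 3 and 11 at 15 mg/kg, which remain in this fit, and at least -0.0406 in every control mouse and every mouse at 1.5 and 150 mg/kg. Side by side with the other groups, the median of Pin4 was 15.7 in controls, 15.7 at 1.5, 38.7 at 15 and 17.3 at 150 mg/kg. That of Gys2 was 25.9, 26.3, 48.7 and 27.6, that of Hspe1 301, 274, 486 and 328 and that of Rab4b 24.8, 24.8, 15.2 and 22.5. In these 4 genes the median at 15 mg/kg stood apart from the other groups. For Lipa the medians were 74.9, 114, 45.1 and 73.6, for Abcb4 387, 508, 277 and 431 and for Fabp1 1950, 1382, 2406 and 1937, so that 1.5 and 15 mg/kg lay on opposite sides of the controls. These 7 genes were chosen after their values were seen. Over the 738 called rows the control mean lay between the doses in 664 and nearer to 1.5 mg/kg in 551, and the mean at 150 mg/kg lay between them in 621 and nearer to 1.5 mg/kg in 577. The rows were chosen by the difference between 1.5 and 15 mg/kg, which by itself tends to place other groups between them, so nothing is read from these counts. No test was made between these groups here.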

How the data were processed

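Livers of 54 mice were profiled by QuantSeq 3′ sequencing, and the 26 mice at 1.5 and 15 mg/kg bw/d DINP (13 each, separate animals, grouped by sample title) were compared. The deposited table holds a signal that the authors made: TPM per gene, a share of transcripts corrected for length,, rounded to whole numbers and divided by a factor per mouse. It keeps no read counts, so depth is unknown, no count test was run and sums of this signal are not depths. Per the submitters' processing notes, GRCm38 and the tools STAR, Salmon and RSEM were used, within the nf-core/rnaseq pipeline that the study's methods name; versions of the single tools are not given in the sources used here.

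Rows whose mean value in the 26 mice reached 1 were tested on log2(value + 1), whose fold changes understate those of low genes, by limma 3.58.1 in R 4.3.3 (trended empirical Bayes) with Benjamini-Hochberg adjustment over all 11449 rows. A row was called at an adjusted p below 0.05 and an absolute log2 fold change above 0.5; positive values are higher at 15 mg/kg. On data simulated for this comparison in 11449 rows, 91 of 100 rows shifted by 1 and 87 of 100 shifted by 0.75 were recovered, with 3 other rows called. Principal component scores were compared by a two-sided permutation test (100000 permutations) and adjusted over 2 components.

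Members and gene lists were chosen with earlier results of these data known; the list of mitochondrially encoded genes was added after the table was seen. Genes named are the 8 called rows with the highest and lowest log2 fold change (mean at least 10), the 6 with the smallest p in each direction, up to 4 called members per list and direction (3 by p where none was called) and 8 genes of the study; any others were chosen after their values were seen. A few genes that meet these rules are not reported here. Alternatives were other pseudocounts (0.1 and 5), minimum means, scalings, weights, a rank test, all 4 groups in 1 fit, a replicate block and leaving out each mouse. Chosen after seeing the data were leaving out the 6 libraries whose first component exceeded 20, and removing a loess trend (span 0.5) on GC content and transcript length. Transcript lengths and positions come from GENCODE M21, promoters from RefSeq (GRCm38.p6).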

Additional observations from a re-analysis of the deposited data

How the results depend on the processing

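No named and called gene changed sign under any of these alternatives that tested it. Genes without an annotated transcript, such as ND3, COX2, COX3 and Gm56450, had no value with the trend removed. Genes with a mean under 5 had none at that minimum mean. Against 407 rows called higher and 331 lower, a pseudocount of 5 gave 247 and 162 and array quality weights gave 221 and 183. The Wilcoxon rank-sum test gave 293 and 209, with 1142 rows at an adjusted p < 0.05 against 1774 in limma. The adjusted p alone, with no fold threshold, gave 1774 rows against 738. A pseudocount of 0.1 gave 448 and 407, no filter 372 and 299, quantile normalization 380 and 342, and 1 fit of all 4 groups 433 and 386. Leaving out each mouse in turn gave 301 to 481 rows higher, 244 to 437 lower and 1330 to 2105 at the adjusted p, the fewest without replicate 5 and the most without replicate 13, both at 15 mg/kg. Leaving out replicates 4 to 9 at 15 mg/kg, chosen after seeing the data, gave 59 and 33, and 265 at the adjusted p; with the trend on GC content and transcript length also removed these were 40, 16 and 162. Of the 82 named and called genes, 61 lost their call without these 6 mice. The difference on the first component passed the test with all tested genes (27.2) but not with 500 (8.36). That on the second component of the 500 genes passed without the 6 mice (10.6) but not with all mice (6.99). Components of different genes or mice are different axes, so the sizes of these differences are not compared. Why the outcomes differed was not tested. Replicate numbers did not pair the mice: correlations of the deviations in the 13 pairs were -0.210 to 0.137, 2 were over 0.1, and 1 mouse matched its own number best. With the replicate block 360 rows were higher and 280 lower, with 1352 at the adjusted p. Depth is unknown, so the precision of low values cannot be given.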

Other observations

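Counts of further gene groups stand against 3.55% of all rows called higher and 2.89% called lower, and the genes below were named after their values were seen. In the endoplasmic reticulum and secretory pathway, of 60 genes 5 were called higher (8.33%) and 2 lower by limma, with a list median of 0.09, and 1 was called higher, none lower, with a median of 0.02 without replicates 4 to 9 at 15 mg/kg. The translocon subunit gene Sec61b was at 0.84 (adjusted p = 0.0106; 0.19 without these mice), and the coat gene Sec24d at 0.71 (adjusted p = 0.0077; 0.29 without them). The coatomer gene Cope was at -0.57 (adjusted p = 0.00342; -0.29 without them). In the unfolded protein response Hspa5, the main chaperone of the endoplasmic reticulum, and the disulfide isomerase gene Pdia3 were lower, at -0.61 and -0.77, and Dnajb9 was higher, at 0.55, with a median of -0.07 over 27 genes. None of these 3 was called without replicates 4 to 9 at 15 mg/kg, at -0.26, -0.21 and 0.34; Pdia4 of the same list was then called higher (0.76, against 0.39 with all mice) and the list median was 0.02. Histone genes gave 3 calls higher of 23 (13.0%), and H2bc4 (0.64) was called again without these mice (0.55), as the only one, with list medians of 0.18 and 0.09. Of 39 genes of RNA polymerase II and its mediator 4 were called higher and 2 lower, with a median of 0.00, and none higher and 1 lower without these mice, with a median of -0.04. The subunit gene Polr2e fell by 0.62 on the log2 scale (adjusted p = 0.00076) and was called again at -0.51 without them.

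Of 16 periportal genes none was called by limma or the Wilcoxon test with all mice. By limma 4 of the 16 were higher at an adjusted p < 0.05 (8.07% of all rows) and none lower, all short of the fold threshold. By the Wilcoxon test 3 had an adjusted p < 0.05. An unadjusted p < 0.05 was found in 10 (9 higher and 1 lower, against 30.4% of all rows). The list median was 0.36, and 0.32 without the 6 libraries, where the immunoglobulin transporter gene Pigr was called higher at 0.72. Female-biased liver genes had a median of 0.36 over 12 genes, with the hydroxyacid oxidase gene Hao2 called higher (0.87, adjusted p = 0.0176). Without the 6 Hao2 was at 0.85 and no longer called, and the list median was 0.20. Of 20 immediate early genes none was called by either test and 5 had an unadjusted p < 0.05 (1 higher, 4 lower; 30.4% of all rows), with a median of -0.28 and of -0.21 without the 6. Of 32 extracellular matrix genes the metalloproteinase inhibitor gene Timp2 was called lower (-0.84, adjusted p = 0.00452; -0.59 without the 6), and the list median was -0.20, and -0.30 without the 6.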
